A study of Homo sapiens with 8 samples.

Results

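Tripartite motif (TRIM) genes linked to the interferon response were described in cells of BE(2)-M17, a neuroblastoma cell line of human origin. They were chosen by gene symbol (TRIM5, TRIM14, TRIM21, TRIM22, TRIM25, TRIM26, TRIM34, TRIM38, TRIM56 and TRIM69), and all 10 were found among the 26372 symbols of the expression table. 4 libraries came from M17 cells given interferon-γ (IFN-γ) at 10 ng/ml for 24 h and 4 from untreated M17 cells, with no genetic change named for either group. Total RNA depleted of ribosomal RNA was sequenced as pairs of 150 nt. Values are FPKM, fragments per kilobase of transcript scaled to the mapped fragments of the library, as the authors deposited them. Because FPKM is per length, levels of different genes can be set side by side. Whether the libraries of a group were separate cultures is not stated, so p-values measure only the spread between libraries, possibly technical. The comparison covers 1 line, 1 dose and 1 time.

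TRIM proteins carry a RING finger, 1 or more B-boxes and a coiled coil, and most end in a domain that binds the target, often a PRYSPRY domain. The RING finger recruits an E2 enzyme that hands ubiquitin to the target, and the coiled coil makes the proteins pair. Many TRIM genes are switched on by interferons, and interferon regulatory factors bind the interferon-stimulated response element (ISRE). Some TRIM proteins attack viral components directly, and others set the strength of signalling from RNA and DNA sensors. TRIM14 is the member that lacks a RING finger and acts as an adaptor, so the name ubiquitin ligase does not apply to it in the usual sense.

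Promoter sequence is shown first, and its part in the changes given further on was not tested. The RefSeq promoter table (GRCh38.p14), whose windows run from 250 bases before to 50 after a start, held 10 windows for 9 of the genes, 2 of them for TRIM34. TRIM22 had no window there and could not be searched. The ISRE core TTTCNNTTTC was searched on both strands. It was found in windows of 6 of these 9 genes, against 3.57% of all 35116 windows and 4.38% of all genes with a window. Among the other TRIM family genes 4 of 52 with a window held it, which is 7.69%. These shares are descriptions without a test. The stretches below are given 5′ to 3′ on the strand of the gene with the matched bases in capitals, so that the spacing and the neighbouring bases of the cores can be compared.

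TRIM5, chr11:5685075-5685164, reverse strand: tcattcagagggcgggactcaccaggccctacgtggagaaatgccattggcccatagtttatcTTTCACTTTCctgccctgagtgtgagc

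TRIM34, chr11:5624871-5624960, forward strand: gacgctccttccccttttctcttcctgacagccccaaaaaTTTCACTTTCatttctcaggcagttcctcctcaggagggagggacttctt

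TRIM69, chr15:44736426-44736515, forward strand: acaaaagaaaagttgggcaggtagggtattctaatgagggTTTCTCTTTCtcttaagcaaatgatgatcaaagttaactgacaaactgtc

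TRIM14, chr9:98119223-98119312, reverse strand: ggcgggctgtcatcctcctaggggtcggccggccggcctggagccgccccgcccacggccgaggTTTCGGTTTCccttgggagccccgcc

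TRIM26, chr6:30213545-30213634, reverse strand: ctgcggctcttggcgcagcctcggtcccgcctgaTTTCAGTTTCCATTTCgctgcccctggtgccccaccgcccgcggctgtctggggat

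TRIM21, chr11:4393668-4393697, reverse strand: tgcttctgagcgGAAACTGAAAGTGAAAta

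Counted from 0 at the start, the TRIM14 and TRIM5 matches began at -26 and -27, the TRIM69 match at -62 and the TRIM34 match at -90. TRIM5 and TRIM34 held the same 10 letters in their matched stretch. In TRIM26, from -194, and in TRIM21, from 17 after the start, 2 matches overlapped, so that the block TTTC stood 3 times with 2 bases between blocks. In TRIM21 the block reads GAAA, since its matches lie on the other strand. The windows of TRIM25, TRIM56 and TRIM38 and the second TRIM34 window held no match to these letters. The interferon-γ activated site TTCNNNGAA matched in none of the 10 windows, against 7.66% of all windows. Both tested members whose window held no core, TRIM25 and TRIM56, were called higher, as were the 5 tested members with one. Among all 392 tested genes with the ISRE core 34.4% were called higher, against 13.0% of 9586 tested genes without it.

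**Figure D1:**
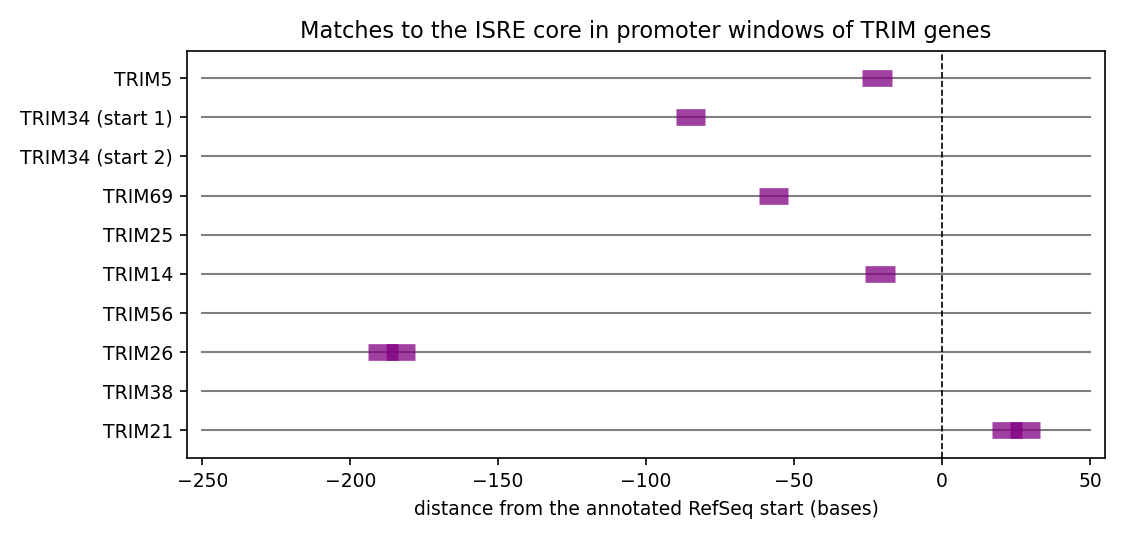
Position of matches to the ISRE core in the RefSeq promoter windows of 9 TRIM genes, in bases from the annotated start (dashed line); each grey line is 1 window and each block 1 match on either strand. Matches lie between -194 and 32 and fall in 6 of the genes, with 2 overlapping matches in TRIM26 and in TRIM21.

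Before the values, the libraries were checked. Read from the spacing of low FPKM values, each library held about 15.1 to 22.0 M (mega) fragments. By that estimate 1 fragment per kilobase was worth 0.0455 to 0.0663 FPKM. A target of 100 M reads is recorded for the sequencing. How the estimate, which counts fragments, relates to that target was not tested, and the fragment numbers given below rest on the estimate. In the 3 pairs that include IFN-γ replicate 4 the variance between libraries was 5.09 to 6.01 times the counting variance, against 1.60 to 2.28 times in the other 9 pairs of a group, so that library stands apart, and no pair differed by less than the counting noise. Of 10 sympathoadrenal neuroblastoma markers 9 were well above the filter, such as HAND2 at 293 to 302 FPKM with IFN-γ and 304 to 309 untreated. Of 11 markers of leukocytes, endothelium, fibroblasts, epithelium and astrocytes 10 were below the filter, CD3E at 0 in all 8 libraries, and PDGFRB was at 19.0 to 22.5 FPKM with IFN-γ and 7.87 to 8.85 FPKM untreated. The treatment was visible in IRF1 (125 ± 2.14 FPKM with IFN-γ and 0.584 ± 0.0404 FPKM untreated; SD, n = 4 each), a transcription factor of the response.

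All 10 TRIM genes were higher with IFN-γ in each of the 4 libraries than in any untreated library. They differed widely in size of change: TRIM22 was almost absent untreated, TRIM21 was 15.2 times as high, and TRIM14 was 1.40 times as high. 8 of them averaged 0.5 FPKM or more over all libraries and were tested by limma on log2(FPKM + 0.1) among 13598 genes, and all 8 rose, where 13.3% of all tested genes were called higher at an adjusted p of 0.05. TRIM22 and TRIM69 passed that filter only through the IFN-γ libraries, so their calls add little to the count, whereas 6 genes would have passed on their untreated mean alone. TRIM34 and TRIM38 lay below it. The libraries of the groups did not overlap, IFN-γ above, in 15.4% of all tested genes. Log2 changes below are of FPKM + 0.1, which makes changes of low genes look smaller, and a bulk library cannot tell more RNA per cell from more cells that hold it.

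**Figure D2:**
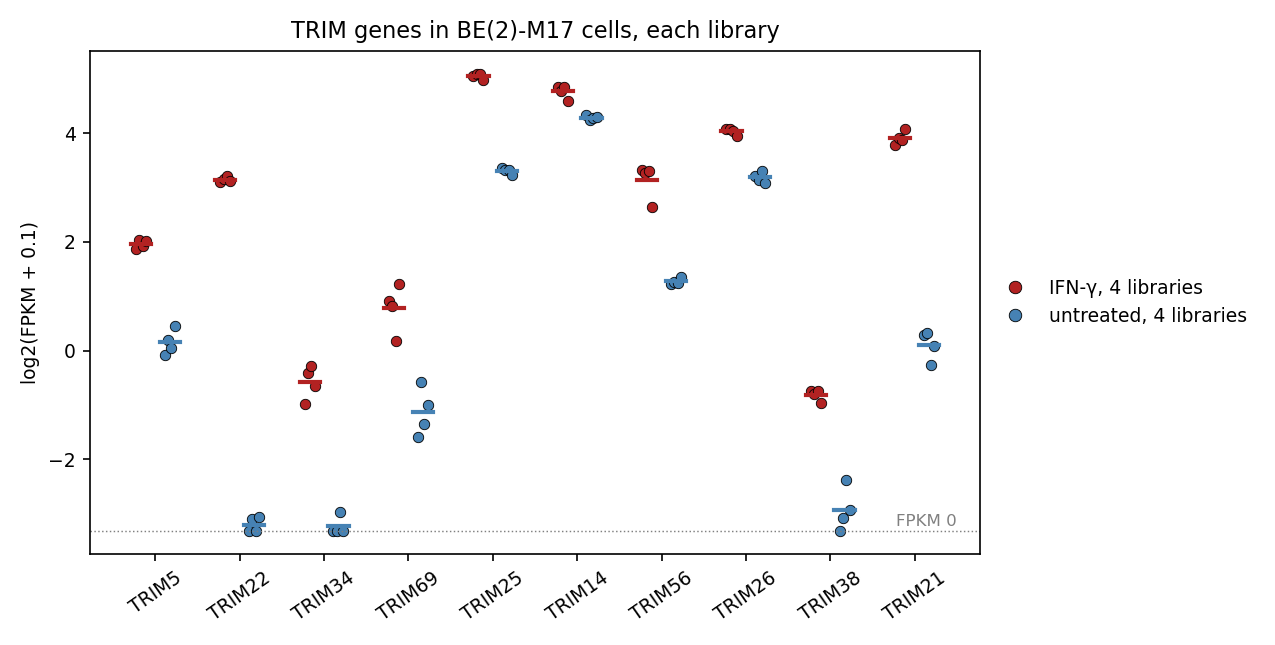
Log2(FPKM + 0.1) of the 10 TRIM genes in each of 8 libraries, IFN-γ (red, left) and untreated (blue, right); bars are the means of the log2 values and the dotted line is an FPKM of 0. In every gene the 4 IFN-γ libraries lie above the 4 untreated ones, and in TRIM56 the fourth IFN-γ library, at 6.19 FPKM, lies below the other 3.

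The genes grouped here by direct antiviral action, TRIM22, TRIM5, TRIM34 and TRIM69, came mostly from a low level. The roles only order the description and can overlap, and a link of role to level was not tested. TRIM22, a nuclear and cytoplasmic restriction factor, had 8.46, 8.81, 9.23 and 8.60 FPKM with IFN-γ and 0, 0.0165, 0 and 0.0194 FPKM untreated. The pair of untreated values above 0 stand for about 1 fragment each, and the IFN-γ values for about 370.3 to 527 fragments, by the longest annotated transcript. The gene was thus at the limit of detection in untreated cells and evenly present in treated ones. Its log2 change was 6.35 (SE 0.14, limma adjusted p = 1.9e-10), a size that the pseudocount sets, since pseudocounts of 1 and 0.01 gave 3.28 and 9.04.

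TRIM5, whose PRYSPRY domain binds the capsid of retroviruses, had 3.56, 4.01, 3.72 and 3.94 FPKM with IFN-γ and 0.840, 1.05, 0.929 and 1.26 FPKM untreated. It averaged 3.81 ± 0.203 FPKM with IFN-γ and 1.02 ± 0.182 FPKM untreated (SD, n = 4 each), a log2 change of 1.82 (SE 0.12, limma adjusted p = 2.4e-06). The lowest treated library was well clear of the highest untreated one.

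TRIM34, a close relative of TRIM5 that acts with it on some retroviral capsids, had 0.404, 0.654, 0.721 and 0.536 FPKM with IFN-γ and 0, 0, 0.0270 and 0 FPKM untreated. That single untreated value stands for about 1 fragment and the IFN-γ values for about 18.4 to 29.3. The difference in mean log2(FPKM + 0.1) was 2.65, with an exact two-sided permutation p = 0.0286, the smallest that 70 arrangements allow. The read-through gene TRIM6-TRIM34, which shares 2233 exonic bases with TRIM34, was listed at 0 in all 8 libraries, so the division of fragments between the 2 entries is uncertain.

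TRIM69, reported to restrict vesicular stomatitis virus, had 1.79, 1.66, 1.03 and 2.23 FPKM with IFN-γ and 0.233, 0.570, 0.290 and 0.402 FPKM untreated. The groups did not overlap, although the standard error was the largest of the tested members. On the log2 scale it rose by 1.91 (SE 0.28, limma adjusted p = 6.4e-04).

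The genes grouped here as regulators of nucleic acid sensing were already present in untreated cells, with TRIM38 as the exception. TRIM25, which ubiquitinates the RNA sensor RIG-I and is a cofactor of the antiviral protein ZAP, had 33.0, 34.2, 34.0 and 31.7 FPKM with IFN-γ and 10.1, 9.97, 9.97 and 9.31 FPKM untreated. It averaged 33.2 ± 1.14 FPKM with IFN-γ and 9.85 ± 0.368 FPKM untreated (SD, n = 4 each), and its log2 change of 1.74 had the smallest error of the members (SE 0.04, limma adjusted p = 7.2e-10). With IFN-γ it was the most abundant of the 10, and the libraries of each group lay close together.

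TRIM14, the adaptor without a RING finger that works with MAVS at mitochondria, had 28.7, 27.3, 28.99 and 24.1 FPKM with IFN-γ and 20.1, 18.9, 19.4 and 19.5 FPKM untreated. Its log2 change of 0.48 (SE 0.06, limma adjusted p = 2.1e-04) was the smallest of the tested members. NANS, a sialic acid synthase gene on the opposite strand, shares 422 exonic bases with TRIM14. It averaged 33.0 ± 2.58 FPKM with IFN-γ and 24.7 ± 0.534 FPKM untreated (SD, n = 4 each), a log2 change of 0.41 (SE 0.05, limma adjusted p = 3.4e-04). The library kit does not mark strand, so fragments of the shared bases cannot be assigned to 1 of the genes, and the part of either in the change of the other was not tested.

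TRIM56, an RNA-binding ligase linked to the DNA-sensing adaptor STING, had 9.93, 9.49, 9.79 and 6.19 FPKM with IFN-γ and 2.24, 2.31, 2.28 and 2.47 FPKM untreated. IFN-γ replicate 4 was at 63.6% of the mean of the other 3. By limma it changed by 1.86 on the log2 scale (SE 0.14, adjusted p = 4.8e-06), and by 2.02 without that library.

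TRIM26, reported as a regulator of IRF3 and lying in the MHC region, had 16.8, 16.9, 16.3 and 15.4 FPKM with IFN-γ and 9.19, 8.74, 9.81 and 8.39 FPKM untreated. On the log2 scale it rose by 0.85 (SE 0.06, limma adjusted p = 2.2e-06). It was thus 1 of 3 members present at about 9 FPKM or more without treatment.

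TRIM38, which restrains Toll-like receptor and TNF signalling through the adaptor TAB2, had 0.498, 0.477, 0.496 and 0.410 FPKM with IFN-γ and 0, 0.0174, 0.0928 and 0.0306 FPKM untreated. By its mean it was the lowest of the members with IFN-γ. The difference in mean log2(FPKM + 0.1) was 2.12 (exact two-sided permutation p = 0.0286, again the smallest possible). Without the filter on low values both TRIM34 and TRIM38 were called higher by limma (adjusted p = 1.4e-05 and 1.4e-04), where 9.29% of 20025 genes were.

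TRIM21, the cytosolic receptor for antibody-coated viruses, had 13.6, 15.0, 14.5 and 16.8 FPKM with IFN-γ and 1.12, 1.15, 0.731 and 0.956 FPKM untreated. It averaged 15.0 ± 1.33 FPKM with IFN-γ and 0.990 ± 0.192 FPKM untreated (SD, n = 4 each). With a log2 change of 3.81 (SE 0.13, limma adjusted p = 7.3e-09) it had the largest change of the genes measured well above 0 in both groups.

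Without IFN-γ replicate 4, the library that stands apart, all 8 tested genes were still called higher, with log2 changes from 0.54 in TRIM14 to 6.36 in TRIM22. The order of levels differed between the groups. With IFN-γ it ran from TRIM25 through TRIM14, TRIM26, TRIM21, TRIM56, TRIM22, TRIM5, TRIM69 and TRIM34 to TRIM38, and the ranges of TRIM26 and TRIM21, of TRIM56 and TRIM22, and of TRIM34 and TRIM38 overlapped. Untreated it ran from TRIM14 through TRIM25, TRIM26, TRIM56, TRIM5, TRIM21, TRIM69, TRIM38 and TRIM22 to TRIM34, with overlaps of TRIM25 and TRIM26, of TRIM5 and TRIM21, and among the lowest 3. TRIM14 thus stood above TRIM25 in every untreated library and below it in every IFN-γ library. The summed FPKM of the 10 genes was 116 ± 4.11 with IFN-γ and 43.1 ± 0.719 untreated, while that of the 68 other TRIM family genes was 431 ± 14.3 with IFN-γ and 433 ± 5.07 untreated (SD, n = 4 each). The 10 genes made up 21.2 ± 0.154% of the family's FPKM with IFN-γ and 9.06 ± 0.0707% untreated.

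Members that share a chromosome did not all behave like their neighbours. On chromosome 11 of GRCh38 (GENCODE release 29), TRIM6 (5596109 to 5612958), TRIM34 (5619764 to 5644398), TRIM5 (5663557 to 5938619) and TRIM22 (5689689 to 5737089) form a cluster. By these GENCODE spans TRIM5, on the reverse strand, encloses TRIM22, with which it shares 0 exonic bases. The RefSeq window searched for TRIM5 (5685025 to 5685324) lies below the lower end of TRIM22. Read from that RefSeq start, TRIM5 does not reach TRIM22. TRIM6 was at 0.0188 to 0.0422 FPKM with IFN-γ and 0 to 0.0429 FPKM untreated, so the groups overlapped in the gene next to TRIM34. TRIM21 (4384897 to 4393696) and TRIM68 (4598672 to 4608259) lie on the same arm, and TRIM68, at 1.22 ± 0.245 FPKM with IFN-γ and 0.930 ± 0.217 FPKM untreated (SD, n = 4 each), did not pass the test (log2 change 0.36, SE 0.19, limma adjusted p = 0.223). The nearest tested genes outside the family there were RRM1, a subunit of ribonucleotide reductase, which fell by 0.19 on the log2 scale (limma adjusted p = 0.00406; 0.61 and not called in TPM), and FAM160A2 (log2 change 0.08, adjusted p = 0.774), from 246021 to 1817639 bases away.

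On chromosome 15 the nearest tested gene to TRIM69 was B2M, the light chain of MHC class I. B2M ends 10111 bases before the GENCODE span of TRIM69 begins. The RefSeq window searched for TRIM69 (44736278 to 44736577) lies within that span, further from B2M. B2M was at 2801 ± 365 FPKM with IFN-γ and 416 ± 11.8 FPKM untreated (SD, n = 4 each), and rose by 2.74 on the log2 scale (SE 0.09, limma adjusted p = 5.8e-09). SORD, 255275 bases to the other side, rose by 0.28 (limma adjusted p = 0.00145). B2M and TRIM69 are read from the same strand, and the part of fragments from beyond the end of B2M in the TRIM69 values was not tested. Over the 14 genes that flank the members, 4 rose and 1 fell, which is 28.6% higher against 13.3% of all tested genes, and the median log2 change was 0.01.

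The rest of the TRIM family served as the comparison. Of 68 further family genes in the table, 37 were tested, all of which would have passed the filter on their untreated mean alone. Of the interferon-linked genes 8 of 8 tested rose, but 2 of them, TRIM22 and TRIM69, passed the filter only through the IFN-γ libraries. The fairer count is the 6 that would have passed on their untreated mean, all of which rose. Of the 37 other genes 5 rose and 4 fell, or 13.5% higher, close to the 13.3% of all genes. Falls made up 9.05% of all tested genes. The median log2 change was 1.84 over the 8, TRIM22 and TRIM69 included, -0.01 over the 37 and -0.005 over all tested genes. The split of calls among the 37 moved with the scaling. After quantile normalization 5 were higher and 8 lower, and rescaling to TPM, in which the median of all tested genes became 0.79, gave 27 higher and 0 lower. TPM without short RNA genes, with a median of -0.096, gave 4 higher and 7 lower. The 8 interferon-linked genes were called higher in all of these settings.

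The largest rise among them was that of PML (TRIM19), which organises nuclear bodies and is itself an interferon-stimulated gene, at 21.2 ± 0.778 FPKM with IFN-γ and 5.55 ± 0.392 FPKM untreated (log2 change 1.92, SE 0.06, limma adjusted p = 2.8e-09). TRIM17, a ligase studied in neuronal apoptosis, was at 6.84 ± 0.780 FPKM with IFN-γ and 2.46 ± 0.0755 FPKM untreated and rose by 1.43 on the log2 scale (limma adjusted p = 1.1e-06). TRIM29, which lacks a RING finger, rose by 1.27, TRIM58 by 0.94 and TRIM44 by 0.29 (limma adjusted p = 1.1e-04, 6.2e-04 and 3.7e-04). TRIM44 also lacks a RING finger.

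4 genes fell. In TPM over all genes, where the median log2 change of all tested genes was 0.79, each of them was positive without a call. In TPM without short RNA genes that median was -0.096. There TRIM67 (-0.79), TRIM55 (-0.77) and TRIM8 (-0.31) were still called lower (limma adjusted p = 6.7e-04, 0.0019 and 0.035). TRIM67, a neuronal member related to the netrin-pathway ligase TRIM9, was at 32.8 ± 4.45 FPKM with IFN-γ and 53.0 ± 0.291 FPKM untreated (log2 change -0.70, SE 0.09, limma adjusted p = 2.4e-04). TRIM55, known from the sarcomere of muscle, fell by 0.66 and TRIM8 by 0.21 (limma adjusted p = 0.00316 and 0.0227), and the fourth fall was that of TRIM2 at -0.20 (adjusted p = 0.0153). TRIM8 lost its call without untreated replicate 1, 2 or 4 (limma adjusted p = 0.0630, 0.0611 and 0.0550) and TRIM2 without untreated replicate 4 (adjusted p = 0.0516). The PHD and bromodomain members TRIM24, TRIM28 and TRIM33 did not pass, with log2 changes of -0.05 to 0.03, and TRIM28 was called lower after quantile normalization (log2 change -0.17, limma adjusted p = 0.00831) and higher in TPM (0.76, adjusted p = 0.0306). TRIM28, the most abundant of the 3, was at 75.1 FPKM with IFN-γ and 77.6 FPKM untreated. Of 14 tested members with a C-terminal PRYSPRY domain and no COS box outside the chosen 10, 2 rose and none fell, or 14.3% higher, close to the 13.3% of all tested genes.

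**Figure D3:**
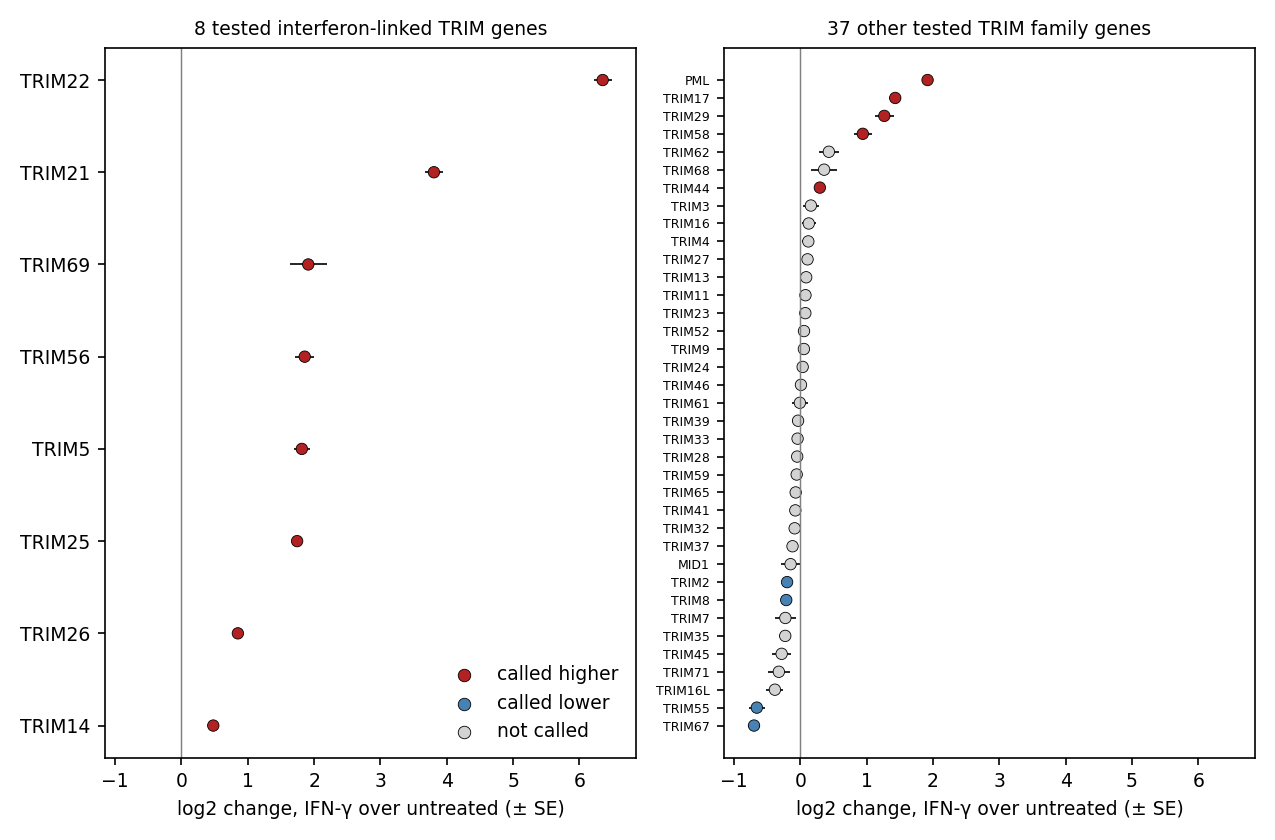
Log2 change of IFN-γ over untreated cells, with its limma standard error, for the 8 tested interferon-linked TRIM genes (left) and 37 other tested TRIM family genes (right). The 8 lie between 0.48 and 6.35, while the others lie between -0.70 and 1.92 with PML highest.

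Enzymes and proteins that the TRIM genes are known to work with were read from a list of 34 genes, of which 30 were tested, 13 rose and 1 fell. The share higher was 43.3%, against 13.3% of all tested genes, and the median log2 change was 0.15. By role it was 40% of 10 E2 enzymes and 85.7% of 7 genes of RNA sensing. In 7 genes of Toll-like receptor and NF-κB signalling it was 14.3%, close to that of all tested genes, and in 6 cofactors 33.3%. IFIH1, 1 of the 13 and a gene of RNA sensing, passed the filter only through the IFN-γ libraries, so its call adds little to either count. Many of the genes on this list belong to the interferon response in their own right.

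Among 10 E2 enzymes, which carry ubiquitin or its relatives and are recruited by RING fingers, 4 rose and 1 fell. UBE2L6, the E2 of ISG15 conjugation, was at 202 ± 19.3 FPKM with IFN-γ and 3.65 ± 0.339 FPKM untreated (SD, n = 4 each; log2 change 5.75, SE 0.08, limma adjusted p = 6.6e-12). The other E2s on the list moved far less. UBE2E1, UBE2D3, UBE2W and UBE2D4 changed by 0.31, 0.24, 0.22 and -0.26 (limma adjusted p = 0.0154, 0.00364, 0.0342 and 0.00609). The calls of UBE2W and UBE2D4 were not kept under every alternative (highest limma adjusted p = 0.331 and 0.116). UBE2N, which makes signalling chains, was at 57.3 ± 4.88 FPKM with IFN-γ and 51.1 ± 0.907 FPKM untreated. Its log2 change was 0.16 (limma adjusted p = 0.0683). UBE2N passed without IFN-γ replicate 2 or 4 (limma adjusted p = 0.0452 and 0.0247).

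Of 7 tested genes of RNA sensing 6 rose. DDX58 (RIG-I), the target of TRIM25, was at 12.5 ± 0.244 FPKM with IFN-γ and 0.675 ± 0.0958 FPKM untreated (log2 change 4.03, SE 0.10, limma adjusted p = 5.8e-10). IFIH1 (MDA5) had 6.85, 6.56, 6.92 and 6.53 FPKM with IFN-γ and was listed at 0 in the 4 untreated libraries. IRF3, the transcription factor at the end of that pathway, rose by 0.96, ZC3HAV1 (ZAP) by 0.61, TBK1 by 0.39 and IKBKG by 0.33 on the log2 scale (limma adjusted p = 1.1e-04, 1.2e-05, 2.3e-04 and 0.00393). MAVS, the mitochondrial adaptor of TRIM14, had 12.6, 12.4, 12.7 and 8.0003 FPKM with IFN-γ and 12.2, 12.5, 13.0 and 12.6 FPKM untreated, and did not pass (log2 change -0.16, limma adjusted p = 0.437). Without IFN-γ replicate 4 its change was 0.002 (adjusted p = 0.977).

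The DNA-sensing pair lay below the filter: TMEM173 (STING), the partner of TRIM56, was at most 0.181 FPKM with IFN-γ and 0.254 FPKM untreated, and MB21D1 (cGAS), which makes the messenger that activates STING, at most 0.0856 FPKM with IFN-γ and 0.143 FPKM untreated. RNF135 (Riplet), another ligase of RIG-I, was listed at 0 in all 8 libraries. Of 7 genes of Toll-like receptor and NF-κB signalling, among them the TRIM38 target TAB2, 1 rose, TRAF6 (log2 change 0.32, limma adjusted p = 0.0373). That call was lost without any 1 of the IFN-γ libraries and without untreated replicate 1 or 2 (adjusted p = 0.0523 to 0.102). It was also lost after quantile normalization, in TPM without short RNA genes and without the filter (limma adjusted p = 0.0577, 0.173 and 0.0601). Among 6 cofactors, the deubiquitinase USP15, which acts on TRIM25, rose by 0.75 (limma adjusted p = 6.4e-07) and VCP by 0.14 (limma adjusted p = 0.0184), a call lost without IFN-γ replicate 3 or untreated replicate 3 or 4 (adjusted p = 0.0557 to 0.0646). VCP was at 0.00041 on the log2 scale after quantile normalization (limma adjusted p = 0.996) and at 0.05 in TPM without short RNA genes (adjusted p = 0.598). PPIA (cyclophilin A), which binds the retroviral capsid that TRIM5 recognises, was at 569 ± 70.9 FPKM with IFN-γ and 527 ± 3.33 FPKM untreated (SD, n = 4 each) and did not pass (limma adjusted p = 0.411).

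**Figure D4:**
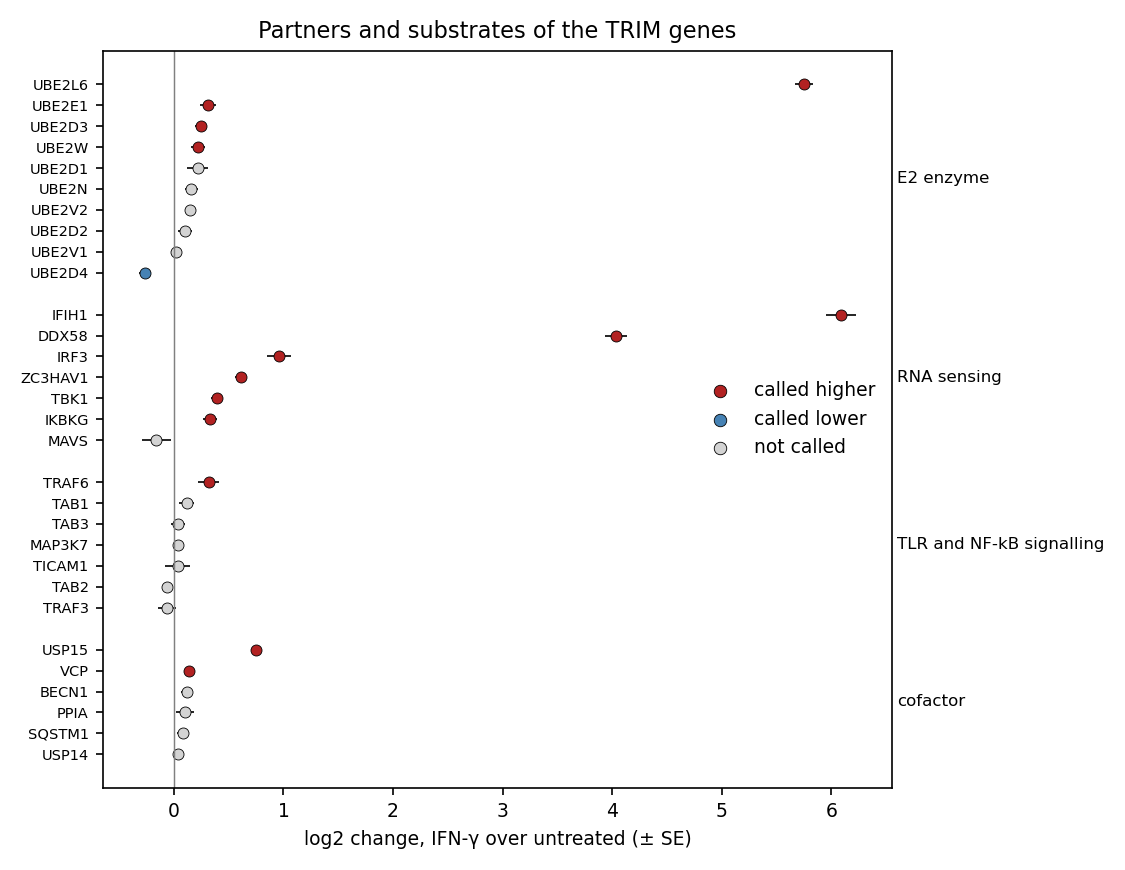
Log2 change of IFN-γ over untreated cells, with its limma standard error, for 30 tested partners and substrates of the TRIM genes, grouped by role. UBE2L6 and DDX58 lie at 5.75 and 4.03, the position of IFIH1, listed at 0 in untreated cells, is set by the pseudocount, and the remaining genes lie below 1.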

How the data were processed

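RNA-seq of 8 libraries of M17 cells was used, 4 given IFN-γ and 4 untreated, grouped by the treatment label. The deposited values are FPKM per gene, made by the authors with TopHat2 and Cuffdiff on hg38, per the submitters' processing notes. No version, option or annotation is named there. Per the labels' protocols the library kit was NEBNext Ultra, which does not mark strand. FPKM are not counts, so no count model was fitted, and relative depth was read from the steps of low FPKM values (2092 genes with a single transcript, length less 200 bases). The other values were computed here.

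The 13598 of 26372 genes that averaged 0.5 FPKM or more were compared as log2(FPKM + 0.1) by limma 3.58.1 (R 4.3.3) with a mean-variance trend, two-sided, adjusting p-values by Benjamini-Hochberg over these genes and calling those under 0.05. Members under the filter had an exact permutation test. The members and lists were chosen with earlier results of these data known. Named genes were the 10 members, up to 8 called genes per list with the largest change and a fixed set. NANS, TRIM2, TRIM24, TRIM28, TRIM33, TRIM68, TRAF6, VCP, UBE2W, UBE2E1, UBE2D3, UBE2D4, MB21D1 and RNF135 were named after their values were seen. Positions came from GENCODE release 29 on GRCh38 (89.96% of symbols matched) and promoters from RefSeq on GRCh38.p14. Alternatives were other pseudocounts, filters and scalings, no trend, the replicate number as a block, and each library left out. In simulated data for this comparison, with 13598 genes and 50 changed by each size, the share recovered was 56% at 1.25-fold, 70% at 1.5-fold, 98% at 2-fold and 100% at 4-fold. There were 174 calls, 12 of them wrong. Far fewer genes were changed there than were called in the data (22.3% of all tested genes), so these shares may not carry over to the data. Fragment numbers are approximate. Some genes of the lists are not reported here.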

Additional observations from a re-analysis of the deposited data

Results flagged for a closer look

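In 91 groups of 4 libraries with any spread, 1 library lay far from the other 3 in 11, where chance flags about 1 in 20. The gap to the nearest other library is given as a share of the group's whole range, and the limit is the 95% critical value of Dixon's test for 4 values. In 7 of the 11 that library was IFN-γ replicate 4.

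TRIM56 was at 6.19 FPKM in IFN-γ replicate 4, against 9.49 to 9.93 FPKM in the other 3 (share 0.882). MAVS was at 8.0003 FPKM there, against 12.4 to 12.7 (share 0.938), TRIM67 at 26.1, against 34.9 to 35.1 (share 0.976), and PML at 20.1, against 21.6 to 21.7 (share 0.919). UBE2L6 was at 231, against 191 to 194 (share 0.935), PPIA at 675, against 528 to 537 (share 0.941), and B2M at 3345, against 2566 to 2661 (share 0.878). TRIM34 was at 0.0270 FPKM in untreated replicate 3 and at 0 in the other 3 (share 1), a difference of about 1 fragment. In untreated cells TRIM28 was at 82.6 FPKM in replicate 1, against 75.5 to 76.4 (share 0.869), TRIM33 at 17.4 in replicate 4, against 16.9 (share 0.969), and TRIM68 at 1.25 in replicate 3, against 0.786 to 0.843 (share 0.877). Of the 10 TRIM genes 5 were lower in IFN-γ replicate 4 than in the other 3 IFN-γ libraries and 2 were higher, from 63.6% of their mean in TRIM56 to 149% in TRIM69. The cause was not tested.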

How the results depend on the processing

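Each of the 8 tested TRIM genes kept its direction and its call under all 18 alternatives, with a highest adjusted p of 0.0117, in TRIM14. Over the leave-one-out fits the TRIM14 change was 0.45 to 0.54 and the TRIM69 change 1.76 to 2.11. TRIM34 and TRIM38 kept their direction and exact p-value side in the 13 settings tried for each. The groups did not overlap in either gene, so another pseudocount could change neither. A library left out could not turn the direction, so these settings are a weak check. Without the filter 10 members were called.

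In TPM the median log2 change of all tested genes became 0.79, with 27 other TRIM genes, 28 partners, 8 flanking genes and 9442 of all tested genes called higher, and 0, 0, 0 and 20 lower. Relative to that shift TRIM14 changed by 0.49, TRIM26 by 0.86 and TRIM21 by 3.81. In TPM the falls of TRIM67 (0.10), TRIM55 (0.10), TRIM8 (0.59), TRIM2 (0.60) and RRM1 (0.61) and the value of MAVS (0.64) turned positive without a call, and TRIM28 and TRIM33 were called higher (0.76 each). Without the short RNA genes the median in TPM was -0.096. That setting gave 7 other TRIM genes, 2 flanking genes and 1780 of all genes lower, and 1144 of all genes higher. FAM160A2 was at -0.0079 and TRIM24 at -0.057. There 9 partners were higher, with IKBKG, TRAF6, VCP and UBE2W no longer called, and TRIM44 lost its call (adjusted p = 0.0555; IKBKG 0.0981). Quantile normalization gave 8 other TRIM genes, 2 partners, 3 flanking genes and 2564 of all genes lower, and 10 partners and 1470 of all genes higher, with TRIM24 at -0.028. With 1 library left out, 1 to 2 flanking genes were lower (2 without IFN-γ replicate 2 or 4), MAVS ran from -0.22 to 0.0020 (positive without IFN-γ replicate 4) and FAM160A2 from -0.016 (without untreated replicate 1) to 0.21. The cause was not tested. The replicate numbers did not pair the libraries (r of deviations -0.03 to 0.08), and the replicate block gave 8 members higher and 1639 of all genes higher and 1017 lower.

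About 1 fragment separates 0 from the lowest FPKM values, which limits TRIM22, TRIM34 and TRIM38 in untreated cells.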
